A study of Mus musculus with 4 samples.

Results

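The genes described here are 46 members of the mouse nuclear receptor superfamily, taken by symbol and matched to the count table through their Ensembl gene identifiers, out of 49315 genes in the table. Their transcripts were counted by poly(A) RNA sequencing of 4 samples of bone marrow-derived macrophages, which are grown from marrow progenitors in L-cell supernatant, a source of macrophage growth factor. For M2 (n = 2), the culture received IL-4 and IL-13 at 10 ng/ml each, the stimulus of alternative activation. For M1 (n = 2), it received 100 ng/ml LPS together with 50 ng/ml of interferon gamma, the stimulus of inflammatory activation. Both groups were polarized in serum-free medium at day 7 of culture for 24 hours, and all 4 libraries carry the label Lyz2Cre+, a Cre recombinase expressed from the myeloid Lyz2 locus. Erlotinib, an EGF receptor kinase inhibitor, was part of the wider experiment, and nothing in the sample labels states which of these cultures, if any, were exposed. No resting macrophages are analysed here to set them against, so "higher" and "lower" describe M2 relative to M1, and the data do not say which of the groups moved.

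Nuclear receptors are transcription factors with a zinc-finger DNA-binding domain and, in most members, a pocket for a small lipophilic ligand such as a steroid, a retinoid, vitamin D, thyroid hormone, an oxysterol or a fatty acid. Many bind DNA as a pair with a retinoid X receptor (RXR), on repeats of the hexamer AGGTCA, and exchange corepressors for coactivators when ligand binds. In macrophages, PPAR gamma and the liver X receptors (LXRs) are known for the control of lipid uptake and cholesterol export, the glucocorticoid receptor for restraint of inflammation, and the NR4A receptors as immediate early genes.

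The libraries held 26806370 to 39506242 gene counts. Values are CPM, counts relative to the library size after TMM scaling, which corrects for differences in RNA composition. M2 and M1 lay on opposite sides of the first principal component, which carried 97.3% of the variance. All 4 M2 marker genes (Retnla, Mrc1, Chil3, Arg1) were higher in M2 and all 3 M1 marker genes (Nos2, Il12b, Cxcl10) were lower. Mrc1 averaged 1035 ± 32.5 CPM in M2 and 2.46 ± 0.601 CPM in M1, and Nos2 averaged 10.1 ± 0.641 CPM in M2 and 7646 ± 550 CPM in M1 (SD, n = 2 each). The 7 macrophage markers were all expressed, 2 higher in M2 (Csf1r and Cd68) and 5 lower (Adgre1, Itgam, Fcgr1, Mertk and Lyz2), and their sum was 4444 and 4334 CPM in M2 libraries, against 5173 and 4953 CPM in M1 libraries. Lyz2, the locus of the Cre, had 6.51 and 6.88 CPM in M2 libraries, against 25.3 and 27.3 CPM in M1 libraries. Markers of other cells were not all silent: 6 fibroblast markers, led by the collagens Col1a1 and Col1a2, summed to 1147 and 1171 CPM in M2 libraries, against 122 and 114 CPM in M1 libraries. Of these 6, 5 were higher in M2 and Dcn was lower. Dendritic cell markers summed to 4.53 and 3.71 CPM in M2, against 456 and 478 CPM in M1, mostly Ccr7 and Xcr1. Of 5 tested, 4 were lower in M2 and Zbtb46 was higher. Among the lower ones, Flt3, Xcr1 and Clec9a passed the filter only through M1, so their direction was fixed by the filter. Endothelial markers summed to 9.003 and 10.2 CPM in M2, against 283 and 261 CPM in M1, from Pecam1 and Kdr, while Cdh5 and Tek stayed under 1 CPM. The labels do not tie the replicates to separate animals or cultures, so the spread behind every p-value is that between these libraries and may be technical.

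Of the 46 receptors, 27 had enough counts for a test with edgeR's quasi-likelihood test, 10 had a few counts and were not tested, and 9 had no count in any library. Of the 27, 14 were higher and 10 lower in M2 at an adjusted p under 0.05, and 3 were not called. Among all 14656 genes tested, 77.2% were called, 39.7% higher and 37.5% lower in M2, so most genes of any kind were called. By at least 1 log2 unit, 11 receptors were higher and 7 lower, where the shares of all tested genes were 22.5% and 18.2%, and 40.7% in either direction. The M2 and M1 libraries did not overlap in 25 of the 27 receptors, as in 88.5% of all tested genes. Thrb, Nr3c2 and Nr2f2 reached the count minimum only through their M2 counts, so their higher M2 value was fixed by the filter. They are among the 14 called higher, the 11 higher by at least 1 log2 unit and the 25 without overlap. Their p-values are therefore not given. Without them, 11 receptors were higher and 10 lower at an adjusted p under 0.05. The median log2 change of the other 24 was -0.07, against 0.04 over all tested genes.

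**Figure D1:**
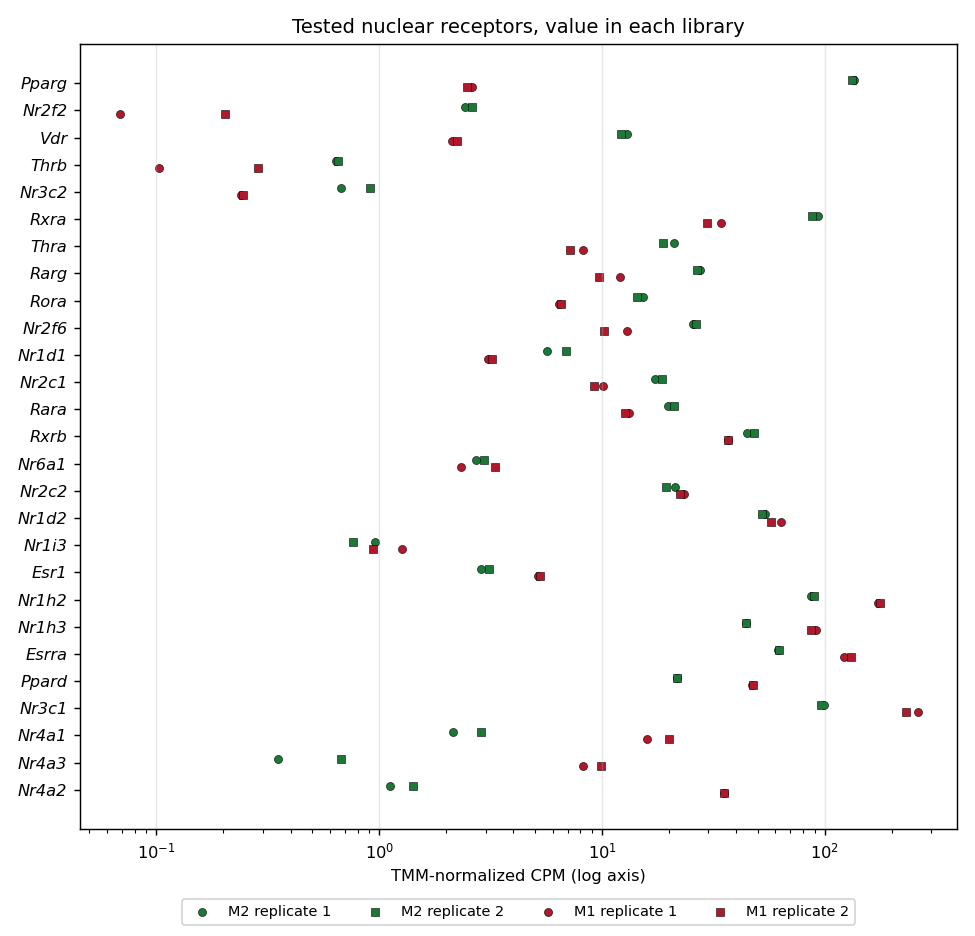
TMM-normalized CPM (log axis) of the 27 tested nuclear receptors in each of the 4 libraries, ordered from the highest to the lowest change of M2 against M1. Replicates of most receptors lie close together, Pparg and Nr2f2 stand far to the right in M2 at the top, the 3 NR4A genes stand far to the left in M2 at the bottom, and Nr6a1 and Nr1i3 overlap.

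**Figure D2:**
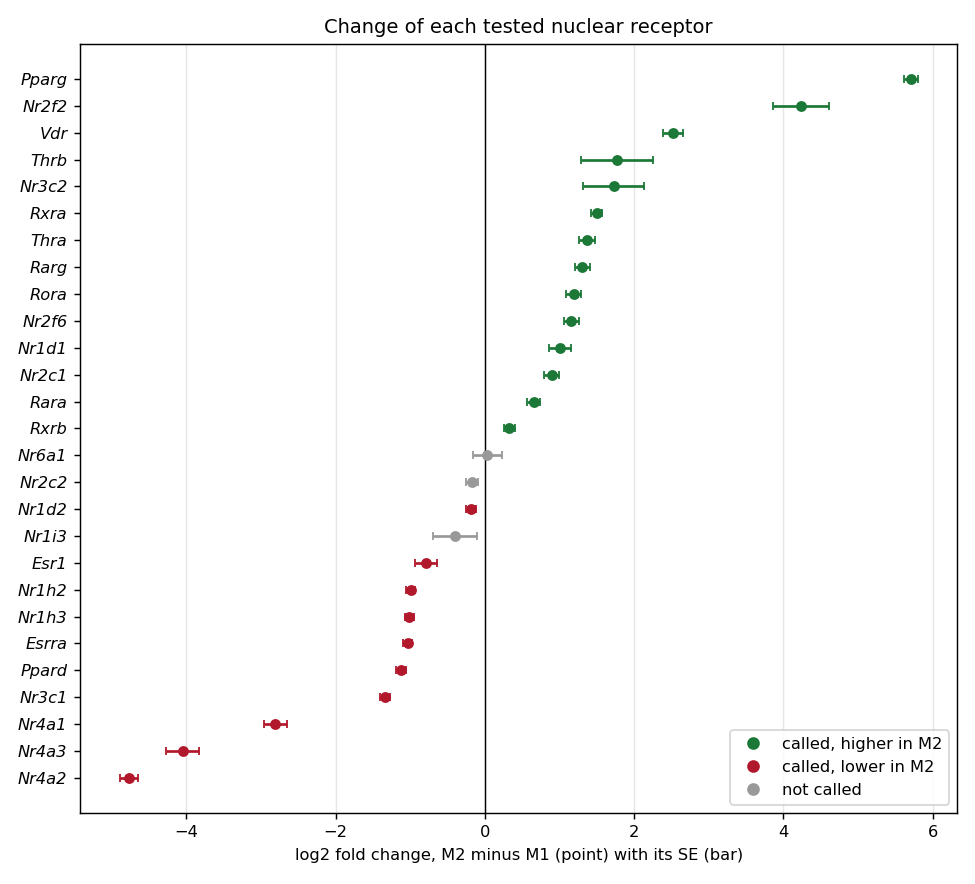
Log2 fold change of M2 minus M1 for the 27 tested receptors (point) with its standard error (bar), coloured by the call at an adjusted p under 0.05. The changes run from 5.71 for Pparg to -4.77 for Nr4a2, and the bars are widest for the receptors with few counts, Thrb, Nr3c2 and Nr2f2.

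The peroxisome proliferator-activated receptors sense fatty acids and their derivatives, and each of the 3 behaved differently. Pparg, which directs lipid uptake and storage, lies on chromosome 6 from 115360951 to 115490399 (GRCm38, plus strand). It had 135 and 133 CPM in M2 libraries, against 2.61 and 2.48 CPM in M1 libraries. Both M2 libraries stood far above both M1 libraries, a 52.3-fold difference (log2 fold change 5.71 ± 0.09 SE, adjusted p = 6.67e-17), the largest change of any tested member. Ppard, the widely expressed form linked to fatty acid oxidation, went the other way. It had 21.6 and 21.8 CPM in M2 libraries, against 47.2 and 47.4 CPM in M1 libraries, and fell by 1.13 on the log2 scale (SE 0.07, adjusted p = 6.36e-10). Ppara, the receptor of hepatic fatty acid oxidation, had no count in any library, which allows up to 0.0651 to 0.122 CPM per library (3 counts, counting error only). Adipocytes also express Pparg. Of their 4 markers, only Adipoq was tested, with 0.543 and 0.478 CPM in M2 libraries and no count in M1 libraries. It passed the filter only through M2, so its higher M2 value was fixed by the filter. Plin1, Cfd and Lep had at most 0.0343 CPM in any library. Their part in the Pparg value was not tested.

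RefSeq lists 3 starts for Pparg on GRCm38.p6, and the 250 bases before 2 of them hold the receptor hexamer AGGTCA. They are shown because Pparg had the largest change, 5′ to 3′ on the plus strand, with the hexamer or its reverse complement in capitals. The match begins 28 bases before the start in the window at chr6:115360894-115361143 and 9 bases before it in the window at chr6:115362099-115362348. Both matches lie inside the gene span given above, and the upstream RefSeq start is 193 bases from the nearest GENCODE start.
Pparg, upstream start: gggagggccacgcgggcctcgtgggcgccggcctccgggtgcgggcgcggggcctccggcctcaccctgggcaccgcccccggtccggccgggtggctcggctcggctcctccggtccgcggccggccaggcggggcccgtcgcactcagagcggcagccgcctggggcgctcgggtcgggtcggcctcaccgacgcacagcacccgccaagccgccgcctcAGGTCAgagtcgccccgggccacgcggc
Pparg, downstream start: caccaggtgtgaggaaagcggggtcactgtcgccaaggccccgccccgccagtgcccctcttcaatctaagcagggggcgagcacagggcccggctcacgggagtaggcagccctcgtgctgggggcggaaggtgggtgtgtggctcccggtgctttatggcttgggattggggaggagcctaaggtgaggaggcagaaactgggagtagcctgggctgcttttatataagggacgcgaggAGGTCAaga
The letters AGGTCA, read on both strands, occur in the same window of 15.8% of the 27025 genes with an entry, so their presence here is a description and no site of binding. Among tested receptors they occur in 4 of 13 higher in M2 (Pparg, Rarg, Rxra and Thrb), 1 of 9 lower (Nr1d2) and 1 of 3 not called (Nr6a1).

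The retinoid X receptors are the shared partners of the PPARs, LXRs, retinoic acid receptors and the vitamin D receptor. Rxra had 93.4 and 87.5 CPM in M2 libraries, against 34.2 and 29.7 CPM in M1 libraries, and rose 2.82-fold (adjusted p = 7.25e-11). Rxrb had 44.5 and 47.9 CPM in M2 libraries, against 36.7 and 36.9 CPM in M1 libraries. The groups did not overlap, and the difference was small at 1.26-fold higher in M2 (adjusted p = 4.18e-04). Rxrg, a form known from muscle and brain, had no count.

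The retinoic acid receptors were higher in M2 where they were expressed. Rarg had 27.4 and 26.6 CPM in M2 libraries, against 12.01 and 9.72 CPM in M1 libraries, a rise of 1.31 on the log2 scale (SE 0.10, adjusted p = 9.68e-09). Rara had 19.8 and 21.0 CPM in M2 libraries, against 13.3 and 12.6 CPM in M1 libraries, a smaller rise of 0.65 (SE 0.09, adjusted p = 7.27e-06). Rarb, which is itself a classical retinoic acid target, was not tested, with 11 and 6 counts in M2 libraries and 2 and 3 in M1 libraries. An antisense neighbour, Top2b, shares 34.1% of the Rarb exon bases, and the library kit does not mark strand, so even these counts may not belong to Rarb.

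Vdr, the receptor for active vitamin D, lies on chromosome 15 from 97854425 to 97910630 (GRCm38, minus strand). It had 12.9 and 12.2 CPM in M2 libraries, against 2.13 and 2.24 CPM in M1 libraries. The change of 5.75-fold (log2 fold change 2.52 ± 0.13 SE, adjusted p = 1.13e-10) was the second largest rise, after Pparg, among receptors with at least 5 CPM in M2. The xenobiotic receptors of the same branch gave little: Nr1i2 (PXR) had 3 counts in all in M2 and 3 in M1. Nr1i3 (CAR) had 0.958 and 0.760 CPM in M2 libraries, against 1.27 and 0.935 CPM in M1 libraries, where the groups overlap and no difference was called (adjusted p = 0.232). The exons of Tomm40l, on the other strand, cover 74.9% of those of Nr1i3, so its few counts are uncertain as well.

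The thyroid hormone receptors stood at very different levels. Thra had 21.1 and 18.8 CPM in M2 libraries, against 8.203 and 7.199 CPM in M1 libraries, a 2.57-fold rise (adjusted p = 1.31e-08). Thrb had 20 and 30 counts in M2 libraries, against 3 and 7 counts in M1 libraries. Its log2 fold change was 1.77 (SE 0.48), a direction fixed by the filter, and 1.17 without M1 replicate 1, where the call was lost.

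The liver X receptors, which sense oxysterols and drive cholesterol efflux genes, were among the most abundant nuclear receptors of M1 per exon length. Nr1h2 (LXR beta) had 86.8 and 89.0 CPM in M2 libraries, against 173 and 178 CPM in M1 libraries. Nr1h3 (LXR alpha) had 44.1 and 44.1 CPM in M2 libraries, against 91.1 and 86.8 CPM in M1 libraries. Both M2 libraries lay at about the same distance below the M1 libraries in the 2 genes, with log2 changes of -0.99 (SE 0.06) and -1.01 (SE 0.06) and adjusted p-values of 6.38e-10 and 6.32e-10. Nr1h4 (FXR), the bile acid receptor, had 3 counts in M1 replicate 1 and none elsewhere.

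Among steroid receptors, the glucocorticoid receptor Nr3c1 dominated. It had 99.3 and 95.8 CPM in M2 libraries, against 261 and 232 CPM in M1 libraries, and fell by 1.34 on the log2 scale (SE 0.07, adjusted p = 8.53e-11). Nr3c2, the mineralocorticoid receptor, was scarce, with 21 and 42 counts in M2 libraries, against 7 and 6 counts in M1 libraries (3.30-fold, a direction fixed by the filter). Esr1, estrogen receptor alpha, had 2.87 and 3.10 CPM in M2 libraries, against 5.18 and 5.25 CPM in M1 libraries, and was 1.73-fold lower in M2 (adjusted p = 1.63e-04). Esr2 had 2 counts and Pgr, the progesterone receptor, had 7 counts over the 4 libraries, and neither was tested.

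Esrra, the estrogen-related receptor alpha, is an orphan receptor that drives mitochondrial genes with PGC-1 coactivators. It had 61.6 and 62.0 CPM in M2 libraries, against 122 and 131 CPM in M1 libraries. The M2 libraries lay below both M1 libraries by 1.03 on the log2 scale (SE 0.06, adjusted p = 4.72e-10). Esrrb and Esrrg had no count.

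The NR4A receptors are orphan receptors without a classical ligand pocket, transcribed within minutes of many stimuli, and all 3 were far lower in M2. Nr4a2 had 1.12 and 1.41 CPM in M2 libraries, against 35.4 and 35.1 CPM in M1 libraries, and fell by 4.77 on the log2 scale (SE 0.12, adjusted p = 1.40e-14), a 27.3-fold difference. Nr4a3 had 0.351 and 0.673 CPM in M2 libraries, against 8.203 and 9.88 CPM in M1 libraries, a 16.6-fold difference (adjusted p = 3.00e-10). Nr4a1 had 2.14 and 2.87 CPM in M2 libraries, against 16.0 and 20.1 CPM in M1 libraries, a 7.02-fold difference (adjusted p = 1.65e-09). In each of the 3 genes M2 replicate 2 stood above M2 replicate 1, by 0.42, 0.34 and 0.94 log2 units for Nr4a1, Nr4a2 and Nr4a3, and both stayed well under the M1 libraries. Dendritic cell and endothelial markers were also lower in M2 by the sums given above, though not each of them. Of 5 tested dendritic cell markers 4 were lower and Zbtb46 was higher. Flt3, Xcr1 and Clec9a had at most 0.217 CPM in M2 libraries and passed the filter only through M1. Their lower M2 value was therefore fixed by the filter. Of 3 tested endothelial markers 2 were lower and Cdh5 was not called. The part of such cells in the NR4A values was not tested.

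The 250 bases before the RefSeq starts of the NR4A genes (GRCm38.p6) are shown because the 3 genes moved together. They are given 5′ to 3′ on the strand of the gene, and capitals mark TGACG or its reverse complement CGTCA, the core of the cyclic AMP response element TGACGTCA. The windows are chr15:101266596-101266845 (plus strand) for Nr4a1, chr2:57124004-57124253 (minus strand) for Nr4a2 and chr4:48045055-48045304 (plus strand) for Nr4a3.
Nr4a1: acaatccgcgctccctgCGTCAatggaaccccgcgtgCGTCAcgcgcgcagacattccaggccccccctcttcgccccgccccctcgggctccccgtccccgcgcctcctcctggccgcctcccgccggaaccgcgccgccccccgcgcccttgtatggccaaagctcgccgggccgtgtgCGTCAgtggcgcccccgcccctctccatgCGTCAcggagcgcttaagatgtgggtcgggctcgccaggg
Nr4a2: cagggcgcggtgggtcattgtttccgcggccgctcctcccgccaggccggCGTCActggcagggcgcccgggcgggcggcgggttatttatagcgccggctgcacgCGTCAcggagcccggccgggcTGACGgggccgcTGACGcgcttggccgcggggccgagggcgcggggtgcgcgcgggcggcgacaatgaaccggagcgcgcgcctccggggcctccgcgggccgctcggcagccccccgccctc
Nr4a3: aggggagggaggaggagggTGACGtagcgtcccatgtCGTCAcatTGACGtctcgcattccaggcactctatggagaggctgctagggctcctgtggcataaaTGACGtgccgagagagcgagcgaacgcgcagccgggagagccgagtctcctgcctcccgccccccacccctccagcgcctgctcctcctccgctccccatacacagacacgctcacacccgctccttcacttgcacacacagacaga
Each window holds 4 matches. The Nr4a1 window lies inside the GENCODE span of its gene, which begins at 101254269. That of Nr4a3 begins at 48045153, so the match nearest its RefSeq start lies inside the gene. At least 1 match occurs in 19.8% of genes with an entry, and at least 4 matches occur in 44 of 27025 genes (0.163%), of which the only nuclear receptors are these 3. At least 1 match also occurs in 4 of 13 receptors higher in M2 (Nr2c1, Rara, Rxrb and Thrb) and in 2 of 3 not called (Nr2c2 and Nr6a1), and the NR4A genes are the 3 of 9 lower ones that hold it. None of the windows holds the full 8-letter element, which occurs in 1.77% of genes. The motif was chosen after the values were seen, and the cut of 4 matches is the number that the NR4A windows hold. The genes are related, and a match of letters is no evidence of a bound factor.

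The clock receptors have opposing roles at the same DNA element, the REV-ERBs as repressors and the RORs as activators. Nr1d1 (REV-ERB alpha) had 5.68 and 6.86 CPM in M2 libraries, against 3.09 and 3.21 CPM in M1 libraries, a 2.01-fold rise (adjusted p = 2.17e-05). Nr1d1 and Thra overlap tail to tail on opposite strands over 263 exon bases, which is 8.55% of the exon bases of Nr1d1. Nr1d2 (REV-ERB beta) was much more abundant and nearly level, with 54.0 and 52.4 CPM in M2 libraries, against 63.8 and 57.1 CPM in M1 libraries. Its difference of -0.19 on the log2 scale (adjusted p = 0.0214) depended on the scaling: it was 0.00 (adjusted p = 0.985) under upper-quartile scaling and a rise of 0.26 (adjusted p = 0.00191) under total-count scaling. The call was also lost without M2 replicate 1 (adjusted p = 0.102), without M2 replicate 2 (adjusted p = 0.216) and without M1 replicate 1 (adjusted p = 0.109). Rora had 15.3 and 14.3 CPM in M2 libraries, against 6.42 and 6.55 CPM in M1 libraries, a 2.28-fold rise (adjusted p = 5.32e-08), and Rorb had 1 count in all.

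The remaining orphan receptors were led by the COUP transcription factor branch. Nr2f2 (COUP-TFII), known from mesenchymal, venous and lymphatic endothelial cells, lies on chromosome 7 from 70351944 to 70366735 (GRCm38, minus strand). It had 76 and 120 counts in M2 libraries (2.43 and 2.60 CPM), against 2 and 5 counts in M1 libraries, an 18.8-fold difference (log2 fold change 4.24 ± 0.38 SE) whose direction was fixed by the filter. The fold rests on 7 M1 counts and ran from 3.61 to 5.13 log2 units when each library was left out in turn. The fibroblast markers were also higher in M2, 5 of 6 of them, and their part in the Nr2f2 value was not tested. The endothelial markers Pecam1 and Kdr were lower in M2, and Cdh5 and Tek had at most 0.89 CPM in any library. In these bulk libraries, fewer cells of a type and less RNA per cell cannot be told apart. Nr2f1 had 8 and 6 counts in M2 libraries, against 0 and 1 in M1 libraries, and was not tested; without the filter on low counts edgeR called it higher.

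Nr2f6 (EAR2), described as a repressor of cytokine genes in T cells, had 25.6 and 26.5 CPM in M2 libraries, against 13.01 and 10.2 CPM in M1 libraries, a 2.23-fold rise (adjusted p = 1.05e-07). Ocel1, on the other strand, shares 54.4% of the Nr2f6 exon bases and was lower in M2, with 20.02 and 18.9 CPM in M2 libraries, against 31.1 and 32.3 CPM in M1 libraries. The library kit does not mark strand, so the Nr2f6 counts are uncertain as well, and the part of Ocel1 in them was not tested. The testicular receptors Nr2c1 and Nr2c2 repress and activate related repeats. Nr2c1 had 17.2 and 18.6 CPM in M2 libraries, against 10.1 and 9.19 CPM in M1 libraries, a 1.86-fold rise (adjusted p = 6.97e-07). Nr2c2 had 21.2 and 19.5 CPM in M2 libraries, against 23.2 and 22.4 CPM in M1 libraries, and was not called (log2 fold change -0.17, SE 0.08, adjusted p = 0.0678). Mrps25, on the other strand, shares 30.7% of its exon bases and was higher in M2 (1.57-fold). The value of Nr2c2 was -0.20 under RLE scaling (adjusted p = 0.0385) and 0.28 under total-count scaling (adjusted p = 0.00678). Nr6a1 (GCNF), a germ cell receptor, had 2.71 and 2.95 CPM in M2 libraries, against 2.33 and 3.29 CPM in M1 libraries, with overlapping groups (log2 fold change 0.03, adjusted p = 0.886).

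Vdr, Nr2f2 and Nr6a1 carry TTC and GAA spaced by 4 bases in the 250 bases before their RefSeq starts, the spacing bound by STAT6, the factor that IL-4 and IL-13 activate. The windows of Vdr and Nr2f2, the receptors with the largest positive log2 fold changes after Pparg, are shown 5′ to 3′ on the minus strand of GRCm38.p6 with the match in capitals, at chr15:97908297-97908546 for Vdr and chr7:70366747-70366996 for Nr2f2.
Vdr: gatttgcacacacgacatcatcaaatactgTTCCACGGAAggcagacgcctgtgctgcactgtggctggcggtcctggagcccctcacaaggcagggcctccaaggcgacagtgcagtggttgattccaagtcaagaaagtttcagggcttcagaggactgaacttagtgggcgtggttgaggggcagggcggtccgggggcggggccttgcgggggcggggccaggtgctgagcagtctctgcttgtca
Nr2f2: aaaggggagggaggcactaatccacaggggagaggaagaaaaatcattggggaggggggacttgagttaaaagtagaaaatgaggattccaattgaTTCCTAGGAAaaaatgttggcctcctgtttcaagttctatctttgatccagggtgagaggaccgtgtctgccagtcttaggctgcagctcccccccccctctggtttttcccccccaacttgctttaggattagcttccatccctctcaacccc
The matches begin 220 and 154 bases before the start in Vdr and Nr2f2. The Vdr window lies inside the gene span given above. Of 13 receptors higher in M2 with an entry, 2 hold this motif, of 9 lower ones 0 and of 3 not called 1 (Nr6a1), and it occurs in 6.76% of all genes. The loose NF-kappaB pattern, GGG and CC spaced by 5 bases, occurs in 12 of 13 higher, 7 of 9 lower and 3 of 3 receptors not called, against 48.7% of genes. It thus occurs in most tested receptors whatever their call. Its stricter form, GGGAA and TTCC spaced by 1 base, occurs in none of the tested receptors (0.333% of genes), and the interferon-type pattern, GAAA repeated after 2 bases, occurs in Esr1 alone (3.46% of genes). In all, 8 motifs were searched on both strands, TGACG lies within TGACGTCA, and 42 of the 46 receptors have an entry.

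The other 19 receptors could not be compared. Those without a count were Ppara, Rxrg, Hnf4g, Nr2e1, Nr2e3, Esrrb, Esrrg, Nr5a1 and Nr0b1, a set that includes the retinal receptor Nr2e3, the neural stem cell receptor Nr2e1 and the steroidogenic factor Nr5a1. Those with a few counts were Rarb, Rorb, Nr1h4, Nr1i2, Hnf4a, Nr2f1, Esr2, Pgr, Nr5a2 and Nr0b2, with at most 11 counts in a library. Hnf4a, the hepatocyte and gut factor, had 4 counts in all, and Nr0b2 (SHP), a receptor without a DNA-binding domain, had 1 count in each M2 library.

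Levels of different receptors can be compared only per length, here as CPM per kilobase of merged exons. In M2 the order began with Pparg (45.2 ± 0.459), then Nr1h2 (26.2 ± 0.457), Nr1h3 (17.5 ± 0.0216), Rxra (16.6 ± 0.766) and Esrra (14.1 ± 0.0498; SD, n = 2 each). In M1 it began with Nr1h2 (52.2 ± 1.04), Nr1h3 (35.4 ± 1.22), Nr3c1 (32.1 ± 2.60), Esrra (28.8 ± 1.32) and Nr1d2 (11.2 ± 0.875). Pparg thus stood at rank 1 of 46 in M2 and rank 19 in M1, while Nr4a2 stood at rank 20 in M2 and rank 7 in M1. Nr1h3 and Rxra in M2, and Nr1h3 and Nr3c1 in M1, differed by little more than the larger of their SDs, so the order of these neighbours is uncertain. The order also depended on the length used: per kilobase of the longest transcript, Esrra stood at 24.8 ± 0.0875 in M2, above Nr1h3 (22.2 ± 0.0274) and Rxra (18.4 ± 0.853). In M1, Esrra (50.8 ± 2.32) likewise stood above Nr1h3 (44.8 ± 1.54), and Rxrb (14.0 ± 0.056) above Nr1d2 (12.97 ± 1.01). Pparg in M2 and Nr1h2 in M1 came first by either length. Summed over all 46 receptors, the level per kilobase was 194 and 194 in M2 libraries, against 217 and 213 in M1 libraries, a small difference beside those of single receptors. The direction of this difference rests on the TMM factors (1.17 and 1.17 in M2, 0.846 and 0.866 in M1). Under total-count scaling, which leaves these factors out, the sum would be higher in M2. The 5 most abundant receptors made up 61.9% and 61.5% of this sum in M2 libraries, against 74.2% and 74.3% in M1 libraries.

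**Figure D3:**
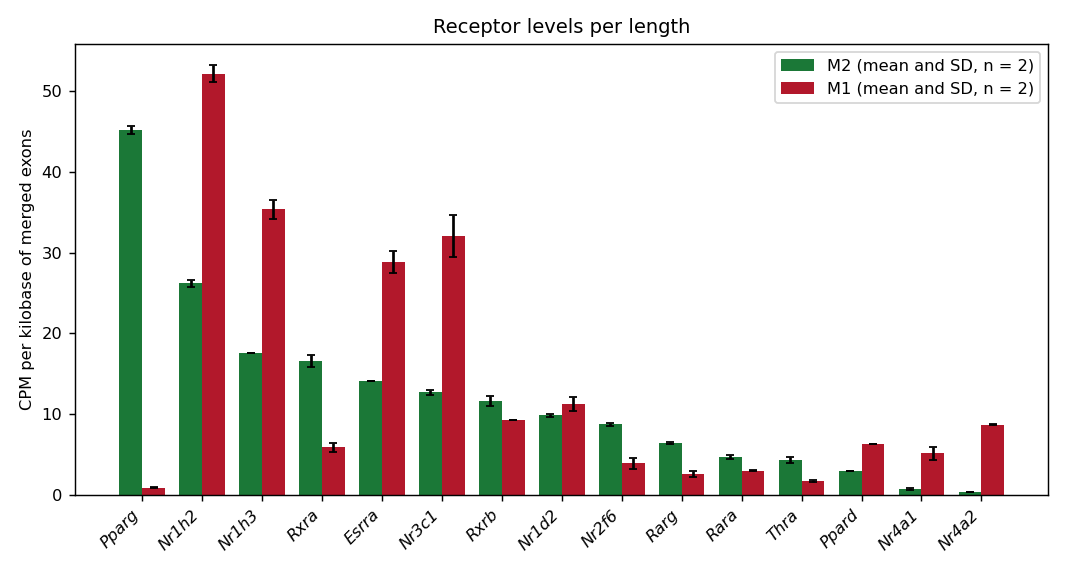
CPM per kilobase of merged exons for the receptors among the 12 most abundant of either group (bars: mean of 2 libraries; error bars: SD), ordered by the M2 level. Pparg leads in M2 at 45.2 and is near 0 in M1 at 0.862, while Nr1h2, Nr1h3, Esrra and Nr3c1 lead in M1.

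The balance within subfamilies was compared with the same values per length, as a description without a test. Pparg made up 94.0 ± 0.0826% of the PPARs in M2 and 12.04 ± 0.406% in M1 (SD, n = 2 each), and Ppard made up nearly all of the rest. Rxra made up 58.7 ± 2.39% of the RXRs in M2 and 38.7 ± 2.47% in M1. Among the NR4A genes, whose total fell, Nr4a1 held 64.3 ± 0.453% in M2 and 33.4 ± 3.23% in M1, and Nr4a2 held 28.2 ± 1.38% in M2 and 56.8 ± 3.90% in M1. Each of these shifts was larger than the spread between replicates. The retinoic acid receptors shifted less, with Rarg at 57.3 ± 1.40% in M2 and 45.9 ± 2.92% in M1, and Nr1d1 held 17.2 ± 2.19% of the REV-ERBs in M2 and 8.42 ± 0.817% in M1. The LXR proportions differed little: Nr1h2 held 59.9 ± 0.389% in M2 and 59.6 ± 1.33% in M1, a difference smaller than the replicate spread, and of the opposite sign without M1 replicate 1.

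**Figure D4:**
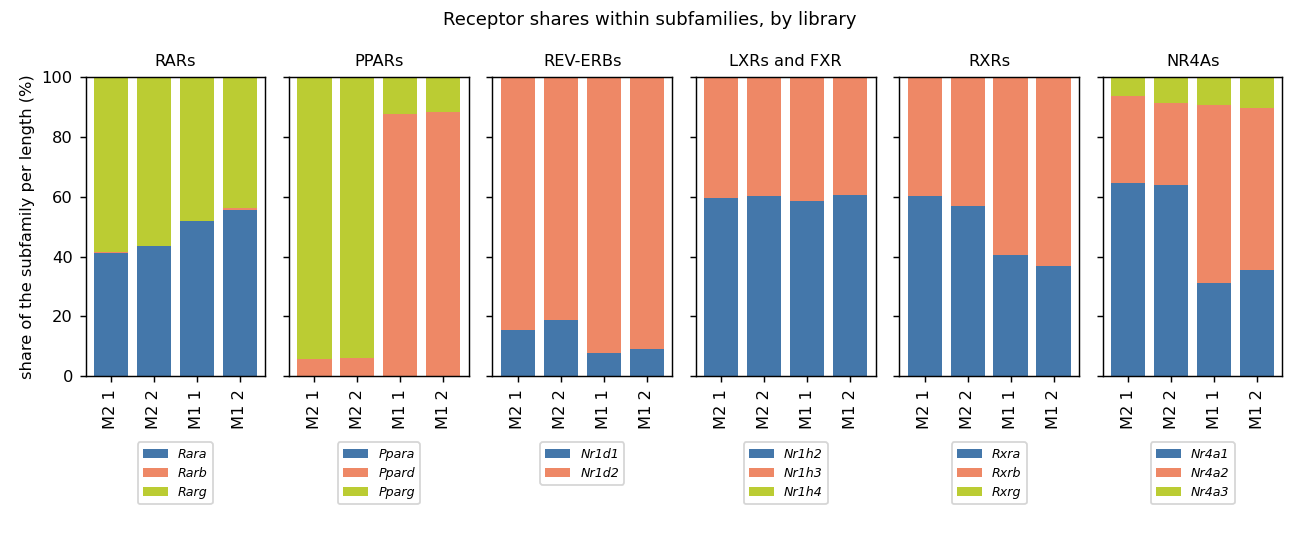
Share of each receptor within 6 subfamilies (percent of the summed CPM per kilobase), one bar per library with M2 left of M1. The PPAR bars are almost all Pparg in M2 and almost all Ppard in M1, whereas the LXR bars are alike in the 4 libraries.

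The ligand side of these receptors was followed with 19 genes that make or inactivate ligands, of which 12 were tested, 7 higher and 3 lower in M2. Among all tested genes, 39.7% were higher and 37.5% lower. The retinoid enzymes Dhrs9 and Dhrs3 were 26.3-fold and 25.6-fold higher. Dhrs3, a retinaldehyde reductase and known retinoic acid target, averaged 590 ± 8.48 CPM in M2 and 23.0 ± 0.879 CPM in M1. Cyp27a1, which makes 27-hydroxycholesterol, an LXR ligand, averaged 36.3 ± 2.24 CPM in M2 and 2.34 ± 0.597 CPM in M1. Ch25h, which makes 25-hydroxycholesterol, went the opposite way, with 0.602 ± 0.0388 CPM in M2 and 85.9 ± 7.48 CPM in M1, a 141-fold difference. Hmox1 and Blvrb, enzymes of the breakdown of haem, the ligand of the REV-ERBs, were 4.38-fold and 2.48-fold lower in M2. Of the 7 intracellular carriers, 5 were tested, 4 higher and 1 lower. Fabp4 averaged 126 ± 10.3 CPM in M2 and 3.26 ± 0.241 CPM in M1, and Fabp5 averaged 414 ± 19.5 CPM in M2 and 62.8 ± 1.62 CPM in M1, while Fabp3 was 2.64-fold lower.

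Cofactors moved in both directions. Of 17 tested coactivators 4 were higher and 8 lower in M2, and of 16 corepressors 6 were higher and 7 lower, with medians of -0.13 and -0.07 log2 units against 0.04 over all tested genes. The shares of all tested genes were 39.7% higher and 37.5% lower. Ncoa3, one of the most abundant coactivators, was 1.18-fold and Carm1 1.56-fold higher, and Sra1 was 1.71-fold lower. Ncoa4, which also carries ferritin to autophagosomes, was 4.44-fold higher, while Ncoa7 was 6.57-fold, the acetyltransferase Kat2b 3.86-fold and the Mediator subunit Med1 1.99-fold lower. Hdac7 rose by 1.13 on the log2 scale, and Lcor fell by 1.45. Tbl1xr1 and Gps2 were 1.75-fold and 1.31-fold higher, and Bcl6 and Sin3a were 1.67-fold and 1.55-fold lower. Under total-count scaling, which moves the median gene by 0.45 log2 units upward in M2, the split became 9 higher and 4 lower for coactivators and 12 higher and 3 lower for corepressors, so the directions of small changes rest on the scaling. Without M2 replicate 2, 4 corepressors were lower in place of 7. Of 10 steroid receptor chaperones, 3 were higher and 6 lower. Hsp90ab1 averaged 1250 ± 8.90 CPM in M2 and 2865 ± 2.45 CPM in M1, and Hsp90aa1 and Hspa8 were 2.78-fold and 2.41-fold lower, while the co-chaperones Fkbp4 and Fkbp5 were 1.54-fold and 1.47-fold higher and Ppid was 1.12-fold higher.

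Target genes were set beside their receptors by list. For comparison, 39.7% of all tested genes were higher and 37.5% lower in M2, with a median log2 change of 0.04. Of 15 tested PPAR targets, 14 were higher and 1 lower in M2, with a median of 1.90 log2 units. Of the 14, Adipoq and Pdk4 reached the count minimum only through M2, so their direction was fixed by the filter. Lpl, which frees fatty acids from lipoproteins, was 138-fold higher, and Cd36, a fatty acid and lipoprotein receptor, averaged 2983 ± 17.8 CPM in M2 and 119 ± 10.5 CPM in M1. The carnitine carrier Slc25a20 was the 1 that fell. Of 13 LXR targets, 9 were higher, 2 lower and 2 not called, with a median of 1.34, while both LXR genes were lower. The 2 not called were Abca1 (log2 fold change -0.20, adjusted p = 0.508) and Srebf1 (0.0005, adjusted p = 0.995). Apoe averaged 7144 ± 129 CPM in M2 and 1202 ± 63.1 CPM in M1, Pltp was 10.1-fold and Scd1 10.96-fold and Scd2 6.81-fold higher, and Mertk was 8.21-fold lower. The 2 lower LXR targets became 1 without M1 replicate 1.

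Of 12 glucocorticoid receptor targets, 8 were higher and 4 lower, with a median of 1.78, while Nr3c1 was lower. Over all tested genes, 39.7% were higher and 37.5% lower, with a median of 0.04. Klf9 averaged 54.9 ± 0.0154 CPM in M2 and 3.41 ± 0.223 CPM in M1, Tsc22d3 (GILZ) was 8.11-fold and Sgk1 6.22-fold higher. Cd163, a scavenger receptor, had 98 and 194 counts in M2 libraries, against 2 and 1 counts in M1 libraries, and Dusp1 and Mt2 were 6.49-fold and 11.7-fold lower. Of 7 tested retinoic acid and vitamin D receptor targets, 4 were higher and 3 lower. Dhrs3 led those that rose, and Cd38, at 0.499 ± 0.0614 CPM in M2 and 232 ± 1.06 CPM in M1, and Tgm2 led those that fell, with Itgb7 at 1.92-fold. The direction of a list does not measure the activity of its receptor.

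Of 13 tested clock genes, 9 were higher and 4 lower, where 39.7% of all tested genes were higher and 37.5% lower. Dbp and Bhlhe41 were 10.5-fold and 15.7-fold higher, Per3 was 3.28-fold and Bhlhe40 2.01-fold higher, and Cry1 was 4.28-fold, Per1 2.17-fold, Cry2 2.16-fold and Nfil3 1.80-fold lower. Of 14 mitochondrial targets and partners of the estrogen-related receptors, Esrra itself among them, 2 were higher, 8 lower and 4 not called. Their median was -0.17, against 0.04 over all tested genes. Perm1, a PGC-1 and ERR partner, was 8.96-fold lower and Cycs, cytochrome c, 2.70-fold lower, while Acadm was 3.74-fold and Idh3a 1.84-fold higher. Cox5a was 1.75-fold lower, and Atp5b was not called (log2 fold change -0.10, adjusted p = 0.185). This split also rested on the scaling, with 9 higher and 4 lower under total counts and 5 higher and 4 lower under upper-quartile scaling, and 4 were lower without M2 replicate 1.

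**Figure D5:**
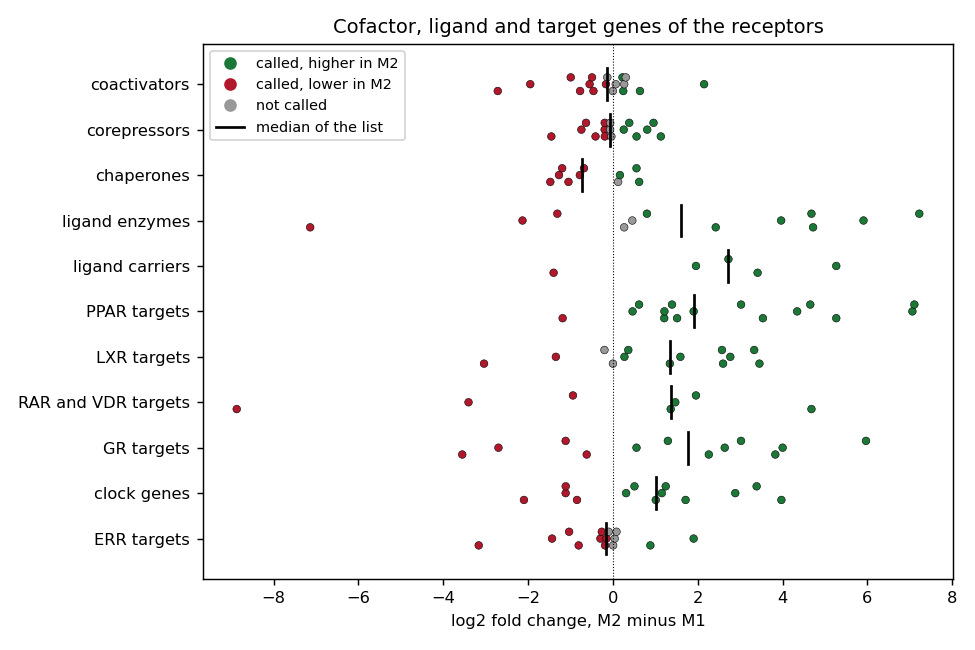
Log2 fold change of M2 minus M1 for tested genes of the 11 cofactor, ligand and target lists (points, coloured by call at an adjusted p under 0.05; some genes stand in more than 1 list), with the median of each list (black bar). The medians of the coactivators and corepressors lie near 0, whereas the medians of ligand carriers, PPAR targets and glucocorticoid receptor (GR) targets lie at 2.72, 1.90 and 1.78.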

How the data were processed

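Per the labels' protocols, RNA was selected with oligo(dT) beads, made into libraries with a kit that does not mark strand, and read as paired 150-base reads. The tools, per the submitters' processing notes, were Subread 1.5.2 with featureCounts, STAR 2.5.2b, Trimmomatic 0.36, DESeq and DESeq2, and the build was GRCm38; how each was run is not stated there. The authors deposited raw whole-number counts per gene. The authors' deposited comparison table was not used, because its symbols are shifted in part.

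Gene identifiers were matched to GENCODE vM21 (GRCm38); 259 of 49315 had no symbol and held at most 0.011% of a library's counts. All 46 receptors matched. The counts were fitted with edgeR 4.0.16 (R 4.3.3): filterByExpr (minimum count 10, total 15), TMM factors of 1.17 and 1.17 in M2 and 0.846 and 0.866 in M1, robust quasi-likelihood F test, two-sided, Benjamini-Hochberg adjustment over all 14656 tested genes, calls at 0.05. Standard errors are the absolute log2 fold change over the square root of F. The fit was tested on simulated data. Alternatives were RLE, upper-quartile and total-count scaling, other filters, DESeq2 1.42.0, limma-voom (limma 3.58.1), a fold threshold and each library left out; levels by longest transcript were added after seeing the data.

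Replicate numbers were given in accession order and pair nothing. Counts of the replicates differed beyond sampling noise (chi-square over its degrees of freedom 2.41 in M2, 14.7 in M1), so each library was counted once.

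The members and lists were chosen with earlier results of these data known. All members with a count were to be named, with, from each list, up to 3 called genes each way of at least 1 CPM and the 2 most abundant per length, and the polarization markers; the motifs, and the marker genes of other cells named singly, were chosen after values were seen. Abca1, Srebf1 and Pdk4 were also named after values were seen. Merged exon length covers all annotated exons. Promoter windows come from RefSeq (GRCm38.p6); the starts of the windows printed lay 0 to 193 bases from the nearest GENCODE start. Intervals and limits cover counting error only. Of the genes and motifs that these rules cover, 3 are not reported here.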

Additional observations from a re-analysis of the deposited data

How the results depend on the processing

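Of the 27 tested receptors, 22 kept their direction and call under every scaling, filter, tool and left-out library that tested them; the exceptions were Thrb, Nr1d2, Nr2c2, Nr6a1 and Nr1i3, the last never called (-0.40, and 0.05 under total counts). Nr1d2 (-0.19) became 0.26 and Nr2c2 (-0.17) became 0.28 under total-count scaling, where Nr6a1 was also called (0.48, adjusted p = 0.0354). Nr1d2 also lost its call with DESeq2 (adjusted p = 0.0534) and without the filter (0.209). Receptors called numbered 12 to 17 higher and 9 to 11 lower over these settings. The higher share of all calls was 51.4% with TMM, 71.9% with total counts and 60.8% with upper quartile; total counts left 3342 genes lower. Among receptors these shares were 58.3%, 65.4% and 60.9%, but they count Thrb, Nr3c2 and Nr2f2, tested only through M2; without them, a choice made after seeing the data, the split under TMM was 11 higher and 10 lower (52.4%). With a change of at least 1 log2 unit also required, all genes gave 3298 higher and 2668 lower, coactivators 1 and 2, corepressors 1 and 1, chaperones 0 higher (edgeR; 3 without this requirement), ERR targets 1 and 3, and the pooled lists 23 lower.

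Coactivators gave 7 higher under upper-quartile scaling and 9 higher and 4 lower under total counts. Corepressors gave 4 lower under upper-quartile scaling and without the filter, and 12 higher and 3 lower under total counts. ERR targets gave 5 higher and 4 lower under upper-quartile scaling and 9 and 4 under total counts. LXR targets gave 1 lower with a CPM filter and with DESeq2. With each library left out in turn, corepressors lower ranged from 4 to 7, LXR targets lower from 1 to 3, and ERR targets lower from 4 to 8. The difference in the Thra share of thyroid hormone receptors ranged from -1.21 to 0.424 percentage points and that in the Nr1h2 share of LXRs from -0.608 to 1.27; both changed sign without M1 replicate 1. With the longest transcript as length, the differences were 82.9 points for Pparg and -4.51 for Nr2f6. Where a value moved, the cause was not tested. With 2 libraries, leaving 1 out makes the lone library share the other group's spread. No paired analysis was possible because the labels give no replicate numbers. Low counts limit Thrb, Nr3c2, Nr2f2 and the 10 untested receptors.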
